A study of Mus musculus with 2 samples.

Results

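The 7 constant genes of the T cell receptor in the mouse, Trac, Trbc1, Trbc2, Trdc, Tcrg-C1, Tcrg-C2 and Tcrg-C4, were followed by name among the 32285 genes counted in colon immune cells. They were chosen by name as constant segments of the alpha, beta, delta and gamma chains. The cells came from 5XFAD mice, a transgenic model of Alzheimer's disease whose transgenes are driven by a neuronal Thy1 promoter, and from wild-type (WT) littermates without the transgenes. All mice were females of 9 months for which the labels name no treatment, colon tissue was dissociated with a lamina propria kit, and live cells bearing CD45, the surface protein shared by white blood cells, were sorted. RNA was counted per cell with a droplet assay that reads the 3′ end of transcripts and tags each molecule with a unique molecular identifier (UMI). Each genotype was 1 library made from 3 pooled mice, so no test between genotypes was possible, no p-value is given, and each interval is a 95% interval that covers counting error only.

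A T cell receptor is a pair of chains, either alpha with beta or gamma with delta, which reaches the cell surface together with the CD3 proteins. Each chain joins a rearranged variable part, which contacts the antigen, to a constant part that holds the membrane anchor, and the constant part is the same in every T cell that uses that gene. The delta locus lies inside the alpha locus, so that a rearrangement of alpha variable to joining segments removes Trdc from that chromosome. Constant genes can also be transcribed without a productive rearrangement, so a UMI shows a transcript and not a receptor. In the gut, alpha beta T cells include helper, cytotoxic and regulatory cells, and gamma delta T cells are found in both the epithelium and the lamina propria.

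The 5XFAD and WT libraries held 3443 cells each, with 18604847 UMIs and a median of 5209 per cell in 5XFAD, and 17939499 UMIs and a median of 4938 per cell in WT. They shared 3 cell barcodes. No 5XFAD cell, against 106 WT cells, had 2500 or more detected genes. The 7 genes together gave 9062 UMIs (0.0487% of all) in the 5XFAD library and 7039 (0.0392%) in the WT library. The authors' 17 clusters are used throughout. In clusters 8, 10, 11, 13 and 14, from 97.6% to 100% of cells carried a UMI of Cd3d, Cd3e or Cd3g, and these are called the CD3-positive clusters (499 cells in 5XFAD, 415 in WT). By markers other than the 7 genes, cluster 8 was regulatory T cell-like, 10 T cell-like, 13 gamma delta T cell-like, 9 type 2 innate lymphoid (ILC2)-like, 12 natural killer or ILC1-like and 16 ILC3-like, and clusters 0 to 5 were B cell-like. Clusters 11, led by Klrd1, Cd7, Ikzf2 and Klra7, and 14, led by Lef1 and Cd8b1, kept their numbers. Clusters 9, 12 and 16 are called the innate lymphoid clusters (256 cells in 5XFAD, 213 in WT). The CD3-positive and innate lymphoid clusters together held 98.3% of the receptor constant UMIs of the 5XFAD library and 97.8% of those of the WT library. Since the clusters were built from the expression of these same cells, the levels in them are a description.

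Trac encodes the only alpha constant region and lies at chr14:54220521-54224206 on the plus strand of GRCm38. It marked the CD3-positive clusters, with an order that was nearly the same in both libraries. In cluster 8, Trac stood at 638 UMIs per 1000000 UMIs of the same cells (CPM; interval 575 to 706) in 5XFAD and 609 CPM (546 to 677) in WT. In cluster 10 the level was 622 CPM (565 to 683) in 5XFAD and 477 CPM (424 to 535) in WT. Clusters 8 and 10 overlapped in their intervals in the 5XFAD library and did not in the WT library. Cluster 14 followed with 489 CPM in 5XFAD and 343 CPM in WT, cluster 11 with 352 CPM in 5XFAD and 324 CPM in WT, and cluster 13 with 228 CPM in 5XFAD and 173 CPM in WT. Among these, the intervals of clusters 14 and 11 overlapped in WT, and the other neighbours were apart.

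Outside the CD3-positive clusters Trac was low. In cluster 12 it reached 55.5 CPM from 31 UMIs in 5XFAD and 35.0 CPM from 17 UMIs in WT. In cluster 9, 10 of 129 cells in 5XFAD and 3 of 108 cells in WT carried a Trac UMI. No Trac UMI was found in cluster 16, with 25 cells in 5XFAD and 17 in WT, nor in cluster 15, which carries myeloid markers. The B cell-like clusters, which should lack the gene, gave the background: 4.60 CPM with a Trac UMI in 53 of 2364 cells (2.24%) in 5XFAD, and 2.13 CPM with one in 27 of 2538 cells (1.06%) in WT. This background left out clusters 6 and 7. There 99.1% to 100% of cells carried a UMI of the B cell genes Cd79a, Cd79b or Ms4a1. A Trac UMI was found in 5 of 166 cells of cluster 6 in 5XFAD against 4 of 114 in WT. In cluster 7 it was found in 15 of 126 cells (11.9%) in 5XFAD against 3 of 126 in WT. The interval of cluster 7 in 5XFAD, 13.7 to 37.7 CPM, overlapped that of cluster 9, 11.2 to 33.1 CPM. In the B cell-like clusters 0 to 5, Trac had a log2 ratio of 5XFAD over WT of 1.11 (0.43 to 1.83) and Trbc2 one of -0.77 (-1.50 to -0.08). Cluster 1 held 37 of the 57 Trac UMIs in 5XFAD and 7 of the 27 in WT. Without cluster 1, left out after the values were seen, 20 Trac UMIs remained in each library, fewer than 50 in all, and the log2 ratio was 0.20 (-0.77 to 1.17). Over all B cell-like clusters these genes were 1 higher and 1 lower by at least 0.5 on the log2 scale out of 3 constant genes with 50 or more UMIs, where 6.95% of 9681 genes were higher and 19.8% lower by as much.

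Trbc1 and Trbc2 encode alternative beta constant regions, and a beta chain uses one or the other. Trbc1 lies at chr6:41538218-41539881 and Trbc2 at chr6:41546730-41548352, both on the plus strand. Their coding sequences were 95.6% identical over 518 aligned bases, whereas the stretches after the coding sequence, toward the 3′ end that the assay reads, were 46.7% identical. The last coding exon of at least 100 bases is shown for both, so that the sequences behind the split between the genes can be compared: Trbc1 at chr6:41539229-41539335 and Trbc2 at chr6:41547772-41547878 (GRCm38, plus strand, read from the GENCODE M21 transcripts). Capitals mark the 15 of 107 positions at which the pair differ.
Trbc1: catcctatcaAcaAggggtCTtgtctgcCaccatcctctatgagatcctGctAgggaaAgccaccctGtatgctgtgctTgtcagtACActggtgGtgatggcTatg
Trbc2: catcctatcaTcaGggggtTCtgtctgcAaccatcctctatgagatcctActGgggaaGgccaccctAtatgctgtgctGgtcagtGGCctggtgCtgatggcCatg

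Unlike Trac, both beta constant genes were abundant in innate lymphoid cells. In cluster 9, Trbc1 stood at 581 CPM (527 to 638) in 5XFAD against 615 CPM (557 to 677) in WT, within the range of the CD3-positive clusters, and 84.5% of the cells in 5XFAD and 88.9% in WT carried a UMI. In cluster 12, Trbc1 stood at 645 CPM in 5XFAD against 559 CPM in WT. Trbc2 stood at 538 CPM (487 to 593) in 5XFAD against 447 CPM (398 to 501) in WT in cluster 9, where 80.6% of cells in each library carried it. The beta constant transcripts of cluster 9 came with little Trac: among cells with a Trbc UMI, 10 of 123 (8.13%) in 5XFAD and 3 of 106 (2.83%) in WT also had Trac. They also came with little of the CD3 genes, since Cd3d had 28.1 CPM in 5XFAD and 28.0 CPM in WT in cluster 9, and 543 CPM in 5XFAD and 526 CPM in WT in the CD3-positive clusters. Cluster 16 held fewer beta constant transcripts, with Trbc2 at 220.0 CPM in 5XFAD against 218 CPM in WT and Trbc1 at 80.0 CPM in 5XFAD against 237 CPM in WT. The B cell-like background of Trbc1 was 2.75 CPM in 5XFAD and 3.87 CPM in WT.

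Among the CD3-positive clusters, the highest Trbc1 level was in cluster 11, with 789.8 CPM in 5XFAD and 779.8 CPM in WT. Its neighbours in the order overlapped in their intervals all the way down to cluster 14 in 5XFAD, and in WT down to cluster 16. The order of Trbc1 from each of these clusters to the next was thus not resolved at this depth. Clusters further apart in the order could differ: the interval of cluster 11 was 724 to 860 CPM in 5XFAD and 706 to 859 CPM in WT. That of cluster 14 lay apart from it, at 467 to 612 CPM in 5XFAD and 397 to 534 CPM in WT. Trbc2 was highest in cluster 14, with 1143 CPM in 5XFAD and 1269 CPM in WT. The next level of Trbc2, in cluster 11, was 1043 CPM in 5XFAD and 987 CPM in WT. Its level in cluster 13 was 791 CPM in 5XFAD and 646 CPM in WT, above that in cluster 12 with 670 CPM in 5XFAD and 465 CPM in WT. The intervals of clusters 13 and 12 overlapped in 5XFAD and did not in WT.

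The share of Trbc1 among Trbc1 and Trbc2 UMIs compares transcripts of the beta constant genes without any scaling by depth. It does not give the share of cells whose receptor uses Trbc1. Over the CD3-positive clusters it was 39.7% (38.3 to 41.1) in 5XFAD and 40.1% (38.6 to 41.7) in WT. In the innate lymphoid clusters Trbc1 took a larger share, 49.9% (47.4 to 52.4) in 5XFAD and 56.4% (53.6 to 59.1) in WT. Cluster 14 had the lowest share among the CD3-positive clusters, at 31.9% in 5XFAD and 26.7% in WT. In cluster 10 the share was 35.1% (32.3 to 38.0) in 5XFAD and 44.5% (41.4 to 47.7) in WT, and in cluster 13 the libraries stood the other way round, with 45.4% (41.6 to 49.3) in 5XFAD and 36.3% (30.9 to 42.1) in WT. Most CD3-positive cells carried UMIs of both genes: 266 cells in 5XFAD and 222 in WT had both. Trbc2 alone was found in 190 cells in 5XFAD and 155 in WT, and Trbc1 alone in 28 cells in 5XFAD and 27 in WT.

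Trdc encodes the only delta constant region and lies at chr14:54142851-54148868, upstream of Trac on the same strand. Its transcripts were concentrated in cluster 13. In cluster 13 it reached 997 CPM (908 to 1092) in 5XFAD and 968 CPM (859 to 1087) in WT, carried by 44 of 76 cells in 5XFAD and 28 of 49 in WT. In cluster 11 it stood at 181 CPM (150 to 217) in 5XFAD against 146 CPM (115 to 183) in WT, carried by 33 of 111 cells in 5XFAD and 21 of 84 in WT. In cluster 12 the level was 41.2 CPM in 5XFAD and 45.2 CPM in WT. The intervals of clusters 13, 11 and 12 did not overlap in either library. In cluster 9 Trdc was at 4.01 CPM in 5XFAD against 7.36 CPM in WT, in contrast to the high Trbc1 level there. Clusters 8 and 10 held 2 and 3 Trdc UMIs in 5XFAD, and neither held any in WT. Cluster 14 held 15 Trdc UMIs in 8 of 60 cells in 5XFAD, 7 of them in 1 cell, against none in 61 cells in WT.

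The gamma constant genes lie together on chromosome 13: Tcrg-C1 at chr13:19214103-19217024 and Tcrg-C4 at chr13:19344558-19352756 on the plus strand, and Tcrg-C2 at chr13:19304649-19307551 on the minus strand. Each is used with its own neighbouring variable segments. Tcrg-C1 and Tcrg-C2 are near copies, 97.4% identical in the coding sequence and 94.1% identical after it, so the split of UMIs between these 2 genes is uncertain. Tcrg-C1 and Tcrg-C4 were 75.5% identical in the coding sequence and 54.3% after it. The last coding exon of at least 100 bases shows this: Tcrg-C1 at chr13:19216476-19216615 (plus strand), Tcrg-C2 at chr13:19305063-19305202 (minus strand) and Tcrg-C4 at chr13:19352201-19352340 (plus strand), in GRCm38 from the GENCODE M21 transcripts. Capitals mark the 45 of 140 positions at which any of the genes differ, and Tcrg-C1 differs from Tcrg-C2 at 4 of them and from Tcrg-C4 at 44.
Tcrg-C1: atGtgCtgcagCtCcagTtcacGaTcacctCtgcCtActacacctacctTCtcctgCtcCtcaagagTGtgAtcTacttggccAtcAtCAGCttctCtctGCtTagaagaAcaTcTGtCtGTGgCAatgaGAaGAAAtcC
Tcrg-C2: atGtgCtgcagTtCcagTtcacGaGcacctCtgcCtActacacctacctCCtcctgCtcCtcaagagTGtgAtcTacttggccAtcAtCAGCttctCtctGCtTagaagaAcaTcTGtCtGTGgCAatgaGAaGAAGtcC
Tcrg-C4: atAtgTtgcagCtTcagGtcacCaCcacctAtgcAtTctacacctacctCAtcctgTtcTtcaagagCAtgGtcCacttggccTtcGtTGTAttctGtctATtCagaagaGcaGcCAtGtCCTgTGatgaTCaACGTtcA

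The gamma constant genes were spread over the clusters in different ways. Tcrg-C1 was highest in cluster 13, with 282 CPM (235 to 335) in 5XFAD and 227 CPM (176 to 288) in WT. In cluster 11 it stood at 84.6 CPM (63.9 to 110) in 5XFAD against 49.3 CPM (32.2 to 72.3) in WT, and in cluster 9 at 45.5 CPM in 5XFAD against 50.02 CPM in WT. Tcrg-C1 was thus the leading gamma constant gene of cluster 13, where it took 69.5% of Tcrg-C1, Tcrg-C2 and Tcrg-C4 UMIs in 5XFAD and 69.8% in WT. Tcrg-C2 was highest in cluster 11, with 95.1 CPM in 5XFAD and 81.6 CPM in WT, followed by cluster 13 with 58.5 CPM in 5XFAD and 50.8 CPM in WT. These neighbours overlapped in their intervals in both libraries. In the innate lymphoid clusters Tcrg-C2 was nearly absent, with 1 UMI in 5XFAD and 3 in WT, and it took 0.588% of the gamma constant UMIs there in 5XFAD and 2.36% in WT.

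Tcrg-C4 was found in CD3-positive and innate lymphoid cells alike. It stood at 118 CPM in 5XFAD against 112 CPM in WT in cluster 11. Its level in cluster 9 was 97.7 CPM in 5XFAD and 76.5 CPM in WT, and that in cluster 12 was 80.6 CPM in 5XFAD and 51.4 CPM in WT. These 3 levels overlapped in their intervals from each cluster to the next. Tcrg-C4 made up 70.6% (63.1 to 77.3) of the gamma constant UMIs of the innate lymphoid clusters in 5XFAD and 63.8% (54.8 to 72.1) in WT, compared with 16.04% (11.1 to 22.1) in 5XFAD and 14.6% (8.21 to 23.3) in WT in cluster 13. Cluster 11 used all of them, with Tcrg-C1, Tcrg-C2 and Tcrg-C4 at 28.4%, 32.0% and 39.6% of gamma constant UMIs in 5XFAD and 20.3%, 33.6% and 46.1% in WT. A further gamma constant gene of the same locus, Tcrg-C3, which is not among the 7, had 2 UMIs in 5XFAD and none in WT.

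**Figure D1:**
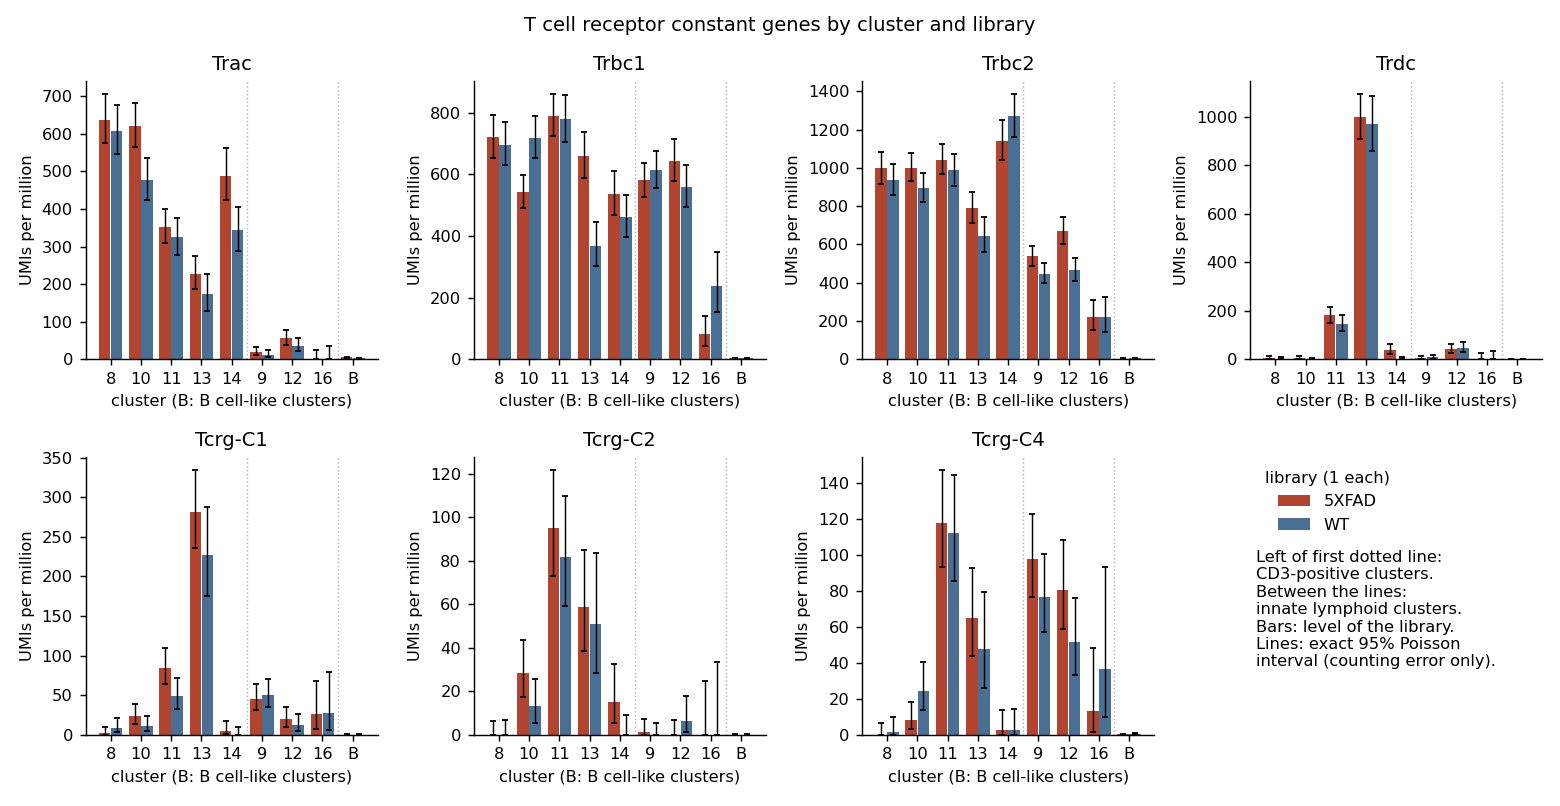
Level of each T cell receptor constant gene in CPM by deposited cluster, 1 panel per gene, with 5XFAD left of WT and bars for exact Poisson 95% intervals of the summed counts. Trac is high in clusters 8, 10, 11, 13 and 14, Trbc1 and Trbc2 are high there and in clusters 9 and 12, and Trdc reaches 997 in 5XFAD and 968 in WT in cluster 13.

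Use of gamma delta against alpha beta constants was expressed as the share of Trdc, Tcrg-C1, Tcrg-C2 and Tcrg-C4 UMIs among UMIs of all 7 genes. It was 45.5% (42.9 to 48.2) in 5XFAD and 52.1% (48.4 to 55.8) in WT in cluster 13, and 18.0% in 5XFAD and 15.7% in WT in cluster 11. In the innate lymphoid clusters it was 11.5% in 5XFAD and 11.1% in WT in cluster 9, 9.36% in 5XFAD and 9.81% in WT in cluster 12, and 11.8% in 5XFAD and 12.3% in WT in cluster 16, which held only 51 receptor UMIs in 5XFAD and 57 in WT. In cluster 8, by contrast, the share was 0.217% in 5XFAD and 0.477% in WT, below that of the B cell-like clusters, where 11 of 130 receptor UMIs (8.46%) in 5XFAD and 15 of 140 (10.7%) in WT were gamma delta. Single B cell-like clusters held too few receptor UMIs to be placed in this order, such as cluster 3 with 3 of 12 in 5XFAD and 3 of 14 in WT. Over all CD3-positive clusters the share was 14.7% (13.9 to 15.6) in 5XFAD and 11.5% (10.7 to 12.4) in WT. The share over all CD3-positive clusters was higher in 5XFAD and the share within cluster 13 was lower in 5XFAD, while cluster 13 held 76 of 499 CD3-positive cells in 5XFAD and 49 of 415 in WT.

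Partner chains were next counted in the same cells. Of CD3-positive cells with a Trac UMI, 388 of 399 (97.2%) in 5XFAD and 314 of 320 (98.1%) in WT also had a beta constant UMI. Of CD3-positive cells with a Trdc UMI, 73 of 89 (82.0%) in 5XFAD and 40 of 49 (81.6%) in WT also had a gamma constant UMI. The beta genes did not separate these classes, since 86 of the 89 Trdc cells (96.6%) in 5XFAD and 46 of the 49 (93.9%) in WT carried a beta constant UMI too. Nor did the gamma genes fully separate them: 89 of 399 Trac cells (22.3%) in 5XFAD and 74 of 320 (23.1%) in WT carried a gamma constant UMI, and in cluster 11 this held for 48 of 81 Trac cells (59.3%) in 5XFAD and 42 of 62 (67.7%) in WT. Few cells carried gamma delta constants alone. After each CD3-positive cell was thinned to 3000 UMIs, which left out 15 cells in 5XFAD and 23 in WT, 340 of 484 cells (70.2%) in 5XFAD and 294 of 392 (75.0%) in WT had alpha beta constants alone. Both kinds were seen in 132 cells (27.3%) in 5XFAD and 87 (22.2%) in WT, and gamma delta constants alone in 8 cells (1.65%) in 5XFAD and 5 (1.28%) in WT. Without thinning, alpha beta alone made up 64.7% in 5XFAD and 68.9% in WT, and both kinds 34.5% in 5XFAD and 29.9% in WT.

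Cells were next split by Trac and Trdc alone, a split added after the values above were seen. Of Trdc cells, 22 of 89 (24.7%) in 5XFAD and 12 of 49 (24.5%) in WT also had Trac. Of Trac cells, 22 of 399 (5.51%) in 5XFAD and 12 of 320 (3.75%) in WT also had Trdc. A gamma constant UMI was carried by a larger share of these Trac cells, 22.3% in 5XFAD and 23.1% in WT. In cluster 11, Trac was found in 8 of 33 Trdc cells (24.2%) in 5XFAD and 9 of 21 (42.9%) in WT, and in cluster 13 in 5 of 44 (11.4%) in 5XFAD and 3 of 28 (10.7%) in WT. Of the CD3-positive cells, 377 (75.6%) in 5XFAD and 308 (74.2%) in WT had Trac without Trdc. Trdc without Trac was found in 67 cells (13.4%) in 5XFAD and 37 (8.92%) in WT, and both genes in 22 cells (4.41%) in 5XFAD and 12 (2.89%) in WT. The remaining 33 cells (6.61%) in 5XFAD and 58 (13.98%) in WT had neither. At 3000 UMIs per cell, Trdc without Trac was found in 67 of 484 cells (13.8%, 10.9 to 17.2) in 5XFAD and 33 of 392 (8.42%, 5.87 to 11.6) in WT, with intervals that overlapped. In B cell-like cells, the background share with Trdc and no Trac was 0.169% in 5XFAD and 0.236% in WT, at medians of 4404 to 5655 UMIs per cell by cluster and library, against medians of 4201 to 6571.5 in the CD3-positive clusters.

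Cluster 13, gamma delta T cell-like by its markers, was mixed by this split. It held 39 Trdc cells without Trac (51.3%) and 27 Trac cells without Trdc (35.5%) in 5XFAD, and 25 Trdc cells without Trac (51.0%) and 14 Trac cells without Trdc (28.6%) in WT. Cluster 11 was mixed the other way, with 25 Trdc cells without Trac (22.5%) and 73 Trac cells without Trdc (65.8%) in 5XFAD, and 12 (14.3%) of the first and 53 (63.1%) of the second kind in WT. In clusters 8 and 10 no cell of either library had Trdc without Trac. In cluster 14, 3 of 60 cells had Trdc without Trac and 5 had both in 5XFAD, against 0 of 61 cells in WT, which allows a share of cells with a Trdc UMI of up to 4.92% where a count of 0 is read as up to 3 cells.

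**Figure D2:**
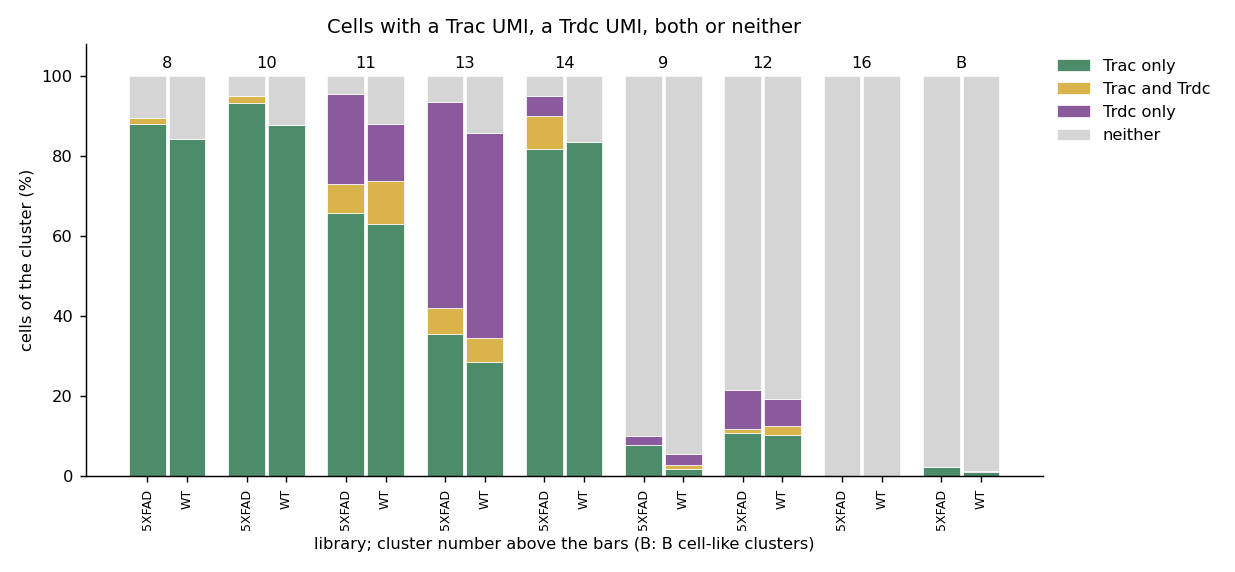
Percent of cells in each CD3-positive and innate lymphoid cluster with a UMI of Trac and none of Trdc, of both, of Trdc and none of Trac, or of neither, with 5XFAD left of WT for each cluster. Cells with Trdc and no Trac make up 51.3% of cluster 13 in 5XFAD and 51.0% in WT, and none of cluster 8 or 10.

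The cells of cluster 13 with Trdc and no Trac had other levels of several genes that were not used to split them than the Trac cells without Trdc of the same cluster. Tcrg-C1 stood at 468 CPM in 5XFAD against 295 CPM in WT in the Trdc cells, and at 45.9 CPM in 5XFAD against 124 CPM in WT in the Trac cells. Tcrg-C2 did not separate them, with 51.1 CPM in 5XFAD and 60.3 CPM in WT in the Trdc cells and 57.4 CPM in 5XFAD and 41.4 CPM in WT in the Trac cells. The beta constants were carried by both: Trbc2 stood at 711 CPM in 5XFAD against 516 CPM in WT in the Trdc cells, where 37 of 39 cells in 5XFAD and 21 of 25 in WT had it, and at 849 CPM in 5XFAD against 797 CPM in WT in the Trac cells. Trdv4, a delta variable segment, stood at 945 CPM in 5XFAD against 704 CPM in WT in the Trdc cells and had no UMI in the Trac cells of either library.

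Receptor-associated genes differed between these cells too. Cd163l1, a scavenger receptor known from gamma delta T cells, was carried by 29 of 39 Trdc cells in 5XFAD (604 CPM) and 20 of 25 in WT (456 CPM), and by none of the 27 Trac cells in 5XFAD and the 14 in WT. Other genes known from gamma delta T cells did not all follow Trdc. Zbtb16 had 93.7 CPM in 5XFAD and 161 CPM in WT in the Trdc cells. In the Trac cells Zbtb16 had 189 CPM in 5XFAD and 331 CPM in WT. Cd27 had 55.3 CPM in 5XFAD and 101 CPM in WT in the Trdc cells. In the Trac cells Cd27 had 207 CPM in 5XFAD and 145 CPM in WT. Maf was carried by 34 Trdc cells in 5XFAD and 23 in WT, and by 24 Trac cells in 5XFAD and 11 in WT. Lck, the kinase that phosphorylates the CD3 chains, had only 1 UMI in 5XFAD (4.26 CPM) and 3 UMIs in WT (20.1 CPM) in the Trdc cells. In the Trac cells Lck had 30 UMIs in 5XFAD (172 CPM) and 18 UMIs in WT (186 CPM). Cd247, the zeta chain of the receptor complex, ran the opposite way to Lck, with 209 CPM in 5XFAD and 194 CPM in WT in the Trdc cells and 34.4 CPM in 5XFAD and 41.4 CPM in WT in the Trac cells. The costimulatory receptor Cd28 was lower in the Trdc cells, with 93.7 CPM in 5XFAD and 214 CPM in WT, against 333 CPM in 5XFAD and 652 CPM in WT in the Trac cells. Cd3g was alike in level, with 856 CPM in 5XFAD and 898 CPM in WT in the Trdc cells and 1021 CPM in 5XFAD and 911 CPM in WT in the Trac cells. These genes were chosen after their values were seen, and these cells were clustered with them, so no test is given.

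In cluster 11 the Trdc cells without Trac showed another profile. Tcrg-C4 had 172 CPM in 5XFAD and 247 CPM in WT in the Trdc cells, and 91.6 CPM in 5XFAD and 86.5 CPM in WT in the Trac cells. Lck had 254 CPM in 5XFAD and 216 CPM in WT in the Trdc cells, and 238 CPM in 5XFAD and 257 CPM in WT in the Trac cells, so that the Trdc cells were higher in 5XFAD and lower in WT. Cd8a, the coreceptor chain that also forms CD8 alpha homodimers on gut lymphocytes, had 1 UMI in 5XFAD (6.87 CPM) and none in WT in the Trdc cells. In the Trac cells Cd8a stood at 163 CPM in 5XFAD against 115 CPM in WT. Klra7, an inhibitory receptor of the Ly49 family, stood at 54.9 CPM in 5XFAD against 61.9 CPM in WT in the Trdc cells, and at 344 CPM in 5XFAD against 211 CPM in WT in the Trac cells. The Trdc cells of cluster 11 numbered 25 in 5XFAD and 12 in WT, and these genes too were chosen after their values were seen.

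**Figure D3:**
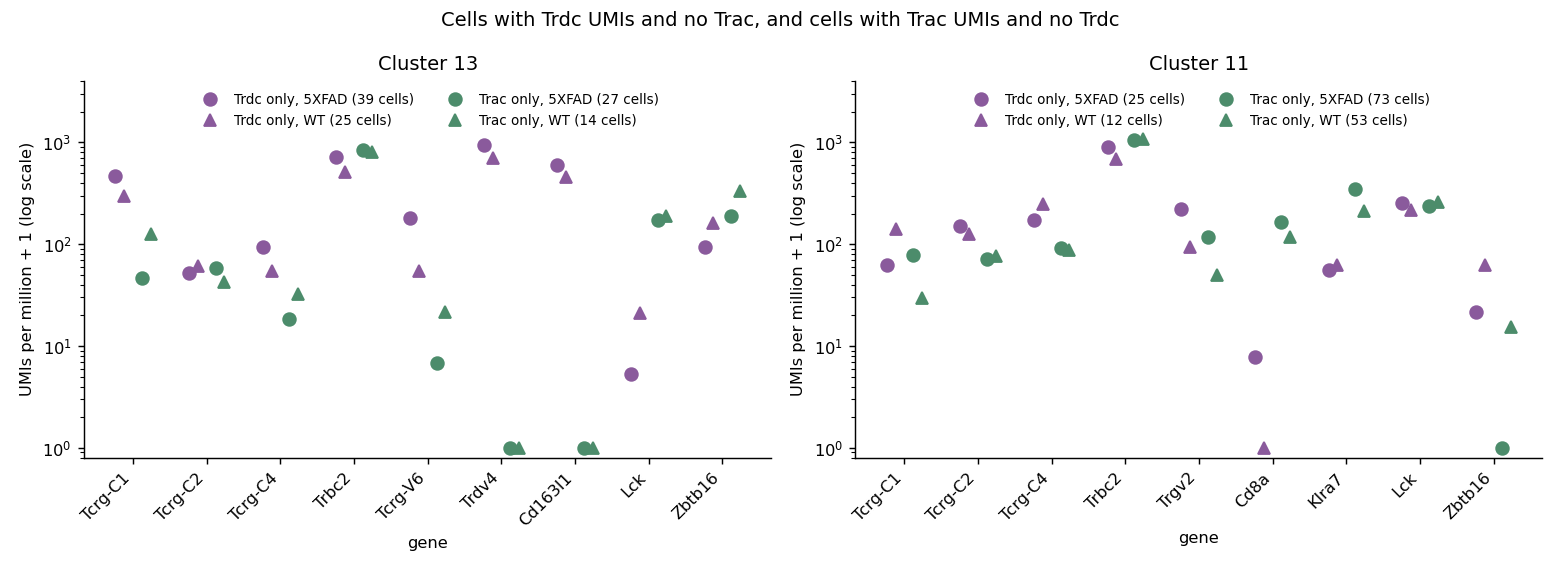
Levels of receptor genes in cells with Trdc and no Trac (purple) and cells with Trac and no Trdc (green) of clusters 13 and 11, as CPM plus 1 on a log axis, with circles for 5XFAD and triangles for WT. In cluster 13, Lck lies at 4.26 in 5XFAD (1 UMI) and 20.1 in WT (3 UMIs) in the Trdc cells. In the Trac cells it lies at 172 in 5XFAD and 186 in WT, and Trdv4 has no UMI there.

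The comparison of genotypes used the log2 ratio of 5XFAD over WT CPM in summed counts. Only genes with 50 or more UMIs in the libraries together were read, and a difference was counted from 0.5 on the log2 scale. In the CD3-positive clusters all 7 genes passed that minimum. Tcrg-C1 was at 73.0 CPM in 5XFAD against 43.95 CPM in WT, a log2 ratio of 0.73 (0.39 to 1.09), and Tcrg-C2 at 41.1 CPM in 5XFAD against 27.6 CPM in WT, a log2 ratio of 0.57 (0.13 to 1.03). These 2 of 7 genes were higher in 5XFAD by at least 0.5, and none was lower, where 6.59% of all 7251 genes were higher and 12.6% lower by as much. Trdc stood just short of that bound, at 213 CPM in 5XFAD against 152 CPM in WT with a log2 ratio of 0.49 (0.29 to 0.68). Trac had a smaller ratio of 0.21 (0.09 to 0.33), from 478 CPM in 5XFAD and 414 CPM in WT. The intervals of Trbc1 (656 CPM in 5XFAD, 641 CPM in WT, log2 0.03, -0.07 to 0.13), Trbc2 (996 CPM in 5XFAD, 957 CPM in WT, log2 0.06, -0.02 to 0.14) and Tcrg-C4 (40.8 CPM in 5XFAD, 37.7 CPM in WT, log2 0.11, -0.30 to 0.53) held 0. The median over the 7 genes was 0.21, against -0.06 over all genes tested. In the single clusters where Tcrg-C1 and Tcrg-C2 were highest, the intervals of both held 0. Tcrg-C1 had a log2 ratio of 0.31 (-0.12 to 0.76) in cluster 13. That of Tcrg-C2 was 0.22 (-0.36 to 0.82) in cluster 11, where Tcrg-C1 had 0.78 (0.08 to 1.51).

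B cell transcripts were found in the CD3-positive cells of both libraries, at unlike levels. A UMI of Cd79a, Cd79b or Ms4a1, B cell receptor and surface genes, was carried by 70 of 499 CD3-positive cells (14.03%) in 5XFAD and by 104 of 415 (25.1%) in WT, and their summed level was 33.7 CPM in 5XFAD and 144 CPM in WT. The summed level of all 7 B cell markers read here ranged over the CD3-positive clusters from 36.8 to 84.3 CPM in 5XFAD and from 184 to 305 CPM in WT, and none of the 7 was found in 20% or more of the cells of any of these clusters. Without the cells that carried a UMI of Cd79a, Cd79b or Ms4a1, the log2 ratio of Trdc was 0.24, that of Tcrg-C1 0.44, that of Tcrg-C2 0.45 and that of Tcrg-C4 -0.19, so that no gamma or delta constant gene reached 0.5. Without cluster 13 the log2 ratio of Trdc was 0.69. Without the cell with the most Trdc UMIs in each library, which held 24 in 5XFAD and 40 in WT, the ratio was 0.59.

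Within single clusters the ratios of the same gene went different ways. In cluster 13, Trbc1 stood at 659 CPM (587 to 737) in 5XFAD against 369 CPM (303 to 445) in WT, a log2 ratio of 0.84 (0.52 to 1.17), while Trdc had a log2 ratio of 0.04 (-0.17 to 0.26). Trbc1 was the 1 of 5 genes past the minimum there that was higher by at least 0.5, where 12.5% of 2038 genes were higher and 11.1% lower. In cluster 10, Trbc1 was lower in 5XFAD, with 543 CPM (490 to 600) in 5XFAD and 719 CPM (653 to 789.5) in WT and a log2 ratio of -0.41 (-0.61 to -0.21), while Trac was at 0.38 (0.16 to 0.60). None of 3 genes reached 0.5 there, where 9.68% of genes were higher and 15.4% lower. The difference between clusters 13 and 10 in the Trbc1 ratio was not tested.

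In cluster 14, Trac had a log2 ratio of 0.51 (0.19 to 0.84), 1 of 3 genes past the minimum, where 9.62% of genes were higher and 17% lower. Trdc in that cluster, with 15 UMIs in 5XFAD and none in WT, was below the minimum and no ratio was read. In cluster 11, Tcrg-C1 had a log2 ratio of 0.78 (0.08 to 1.51), 1 of 7 genes, where 10.7% of genes were higher and 11.3% lower. In cluster 8 the 3 genes past the minimum lay between 0.05 and 0.09, where 10.6% of genes were higher and 14.2% lower by 0.5. In this regulatory T cell-like cluster the interval of each held 0, at -0.15 to 0.28 for Trac, -0.15 to 0.25 for Trbc1 and -0.08 to 0.26 for Trbc2.

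Among the innate lymphoid clusters, Trbc2 was higher in 5XFAD in cluster 12, with 670 CPM (604 to 741) in 5XFAD and 465 CPM (406 to 529) in WT and a log2 ratio of 0.53 (0.29 to 0.77). Tcrg-C4 there had 0.65, with an interval of -0.09 to 1.42. These were 2 of the 3 genes past the minimum, where 9.2% of genes were higher and 14.3% lower. In cluster 9, Trbc2 had a log2 ratio of 0.27 (0.05 to 0.49) and none of 4 genes reached 0.5, where 9.95% of genes were higher and 13.3% lower. Over all innate lymphoid clusters Trac had 0.69 (-0.04 to 1.45) from 46 UMIs in 5XFAD and 25 in WT, the 1 of 6 genes past the minimum to reach 0.5, where 7.95% of genes were higher and 14.1% lower.

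**Figure D4:**
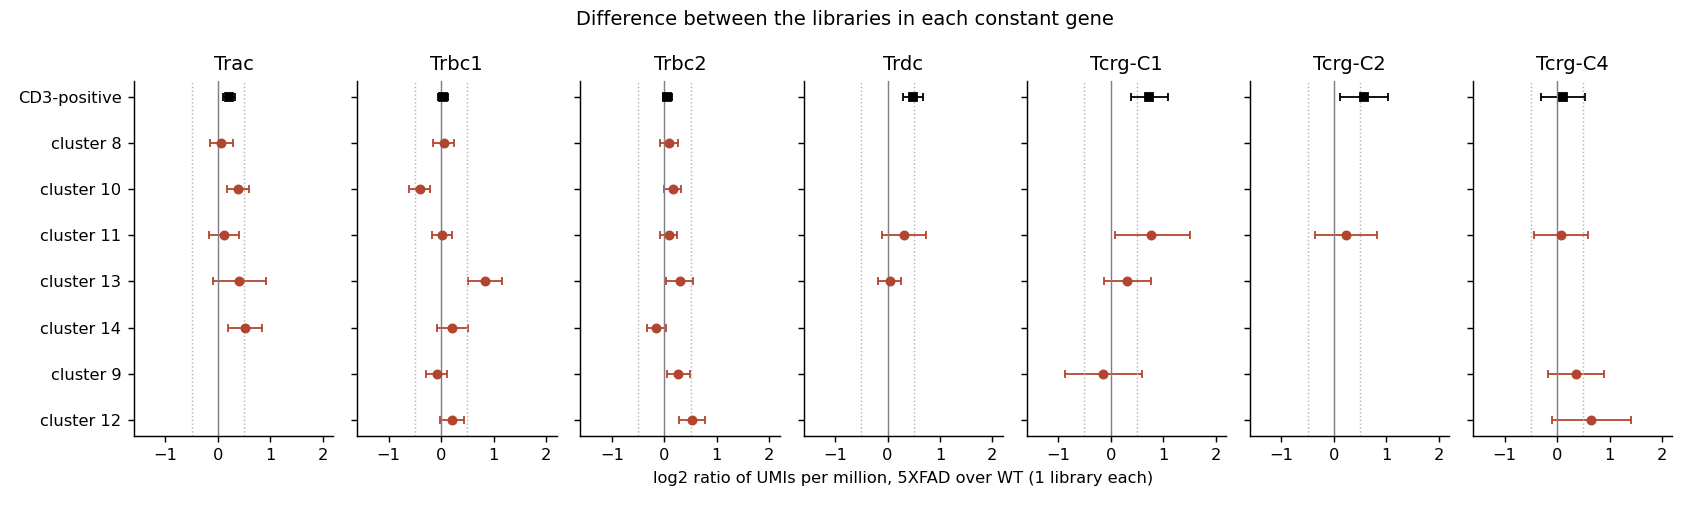
Log2 ratio of 5XFAD over WT of each T cell receptor constant gene, over the CD3-positive clusters (black squares) and in single clusters, with exact 95% intervals of the counts and dotted lines at 0.5 and -0.5. Trbc1 lies at 0.84 in cluster 13 and at -0.41 in cluster 10, and the intervals of Tcrg-C1 and Tcrg-C2 over the CD3-positive clusters lie above 0.

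Variable segments of the same loci, which the choice of genes did not use, were sparse. In the CD3-positive clusters the 128 alpha variable genes together stood at 48.2 CPM in 5XFAD against 46.5 CPM in WT, and the 35 beta variable genes at 33.3 CPM in 5XFAD against 29.3 CPM in WT. The 6 delta variable genes stood at 99.6 CPM in 5XFAD against 47.3 CPM in WT, and the 7 gamma variable genes at 90.0 CPM in 5XFAD against 50.6 CPM in WT. Trdv4 was the most abundant of all, with 440 UMIs in 5XFAD and 194 in WT. Of these, 246 in 5XFAD and 106 in WT lay in cluster 13, 126 in 5XFAD and 70 in WT in cluster 9, and 60 in 5XFAD and 16 in WT in cluster 12. Trdv4 was thus present in cluster 9, where Trdc had 3 UMIs in 5XFAD and 5 in WT.

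The gamma variable segments were divided among the clusters. Trgv2 lay mostly in cluster 11, which held 105 of its 156 UMIs in 5XFAD and 40 of its 76 in WT. Tcrg-V6 lay mostly in cluster 13, which held 49 of its 54 UMIs in 5XFAD and 10 of its 13 in WT. Tcrg-V5 lay mostly in innate lymphoid cells, and cluster 9 held 29 of its 49 UMIs in 5XFAD and 7 of its 14 in WT. Of CD3-positive cells with Tcrg-V6, 21 of 23 in 5XFAD and 7 of 9 in WT also had Tcrg-C1, a gene carried by 19.4% of all CD3-positive cells in 5XFAD and 14.7% in WT. In cluster 13, where most Tcrg-V6 UMIs lay, 34 of 39 Trdc cells without Trac in 5XFAD and 20 of 25 in WT had Tcrg-C1. So did 7 of 27 Trac cells without Trdc there in 5XFAD and 7 of 14 in WT. Of CD3-positive cells with Trgv2, 42 of 78 in 5XFAD and 22 of 45 in WT also had Tcrg-C2, a gene carried by 13.4% of all CD3-positive cells in 5XFAD and 11.6% in WT. Tcrg-C4 was found about as often in the Trgv2 cells, in 39 of 78 in 5XFAD and 23 of 45 in WT, from 15.2% of all CD3-positive cells in 5XFAD and 14.2% in WT, and Tcrg-C1 in 33 of 78 in 5XFAD and 18 of 45 in WT. In cluster 11, where most Trgv2 UMIs lay, 12 of 25 Trdc cells without Trac in 5XFAD and 5 of 12 in WT had Tcrg-C2. So did 18 of 73 Trac cells without Trdc there in 5XFAD and 20 of 53 in WT. Pairing of segments and constant genes within a cluster was not tested. The leading alpha segments were Trav16 with 12 UMIs in 5XFAD and 5 in WT, Trav16n with 10 in 5XFAD and 4 in WT, and Trav6-7-dv9 with 7 in 5XFAD and 5 in WT. The leading beta segments were Trbv12-2 with 18 UMIs in 5XFAD and 19 in WT, Trbv19 with 15 in 5XFAD and 8 in WT, and Trbv2 with 5 in 5XFAD and 12 in WT. The delta segments after Trdv4 were Trdv2-2 with 23 UMIs in 5XFAD and 3 in WT and Trdv1 with 8 in 5XFAD and 1 in WT.

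The genes most like each constant gene across the 17 clusters were named by the highest Pearson r of log2(CPM + 1) among 10124 genes, with both libraries summed. Trac was most like Cd247 (r = 0.976), Cd3d (0.956) and Cd3g (0.949), which encode chains of the receptor complex. Among the genes most like Trbc1 were the adaptor Skap1 (0.982) and the kinase Zap70 (0.979), and among those most like Trbc2 were Zap70 (0.978) and the kinase Camk4 (0.977). Trbc1 and Trbc2 had r = 0.993 with each other and Trac had 0.777 with Trbc1. The delta and gamma genes had other neighbours, except that Cd3d was named for both Trac and Tcrg-C2. Among those most like Trdc were Btbd11 (0.802) and the cytotoxic granule gene Nkg7 (0.802), and Tcrg-C2 was most like Bicdl1 (0.828), Fasl (0.823) and Cd3d (0.802). Tcrg-C1 was most like Tbc1d22b (0.961), Dock5 (0.951) and Prrt1 (0.94), and Tcrg-C4 like Dock5 (0.945), Tbc1d22b (0.927) and Apol7e (0.925). The clusters share cells, libraries and the genes they were built from, so these values are descriptions over 17 points.

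The genes that act with the receptor were read in the CD3-positive clusters from a list of 25 complex and signalling genes, of which 24 passed the minimum. Of these, 7 had a log2 ratio above 0 and 17 below, with a median of -0.30 against -0.06 over all genes tested. None was higher by 0.5, and 2 were lower, where 6.59% of all 7251 genes were higher and 12.6% lower by as much. The 2 were Cd8b1, the CD8 beta chain, with 30.8 CPM in 5XFAD and 71.6 CPM in WT (log2 -1.21), and Themis, a signalling protein of thymic selection, with 49.98 CPM in 5XFAD and 75.8 CPM in WT (log2 -0.60). The CD3 genes themselves stood at 0.05 for Cd3d, 0.33 for Cd3e and 0.10 for Cd3g, and Cd247 at 0.07. The coreceptors Cd4 and Cd8a were at -0.36 and -0.44. The highest ratios of the list belonged to Trat1, a receptor-associated adaptor, at 0.35, to Cd3e, and to Cd2 at 0.21, and Bcl11b, a T lineage transcription factor, was among the lowest at -0.50.

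A second list held 20 genes known from gamma delta T cells, of which 17 passed the minimum. Their log2 ratios were above 0 for 8 and below for 9, with a median of -0.00. Over the CD3-positive clusters together, 5 genes of this list were higher and 1 lower by at least 0.5. Over all genes the same 6.59% were higher and 12.6% lower. The 5 were Il1r1, the receptor of interleukin 1, with 31.5 CPM in 5XFAD and 13.8 CPM in WT (log2 1.19), Il17f (1.05), Il17a (0.71), the cytotoxic protease gene Gzmb with 122 CPM in 5XFAD and 71.2 CPM in WT (0.78), and Cd163l1 (0.61). Not all of these came from Trdc cells. In clusters 11 and 13, where most Trdc UMIs lay, Il17f had no UMI in either library. In cluster 13, Il17a had 2 UMIs in 5XFAD and none in WT in Trdc cells without Trac. In cluster 11, Gzmb had 89.3 CPM in 5XFAD and 108 CPM in WT in Trdc cells without Trac. In Trac cells without Trdc there, Gzmb had 190 CPM in 5XFAD and 57.7 CPM in WT. Egr3, a transcription factor induced by receptor signalling, was the 1 lower, at -0.94, and Tcf12 and Zbtb16 had -0.36 and -0.32. In cluster 13 alone, 7 genes of the second list passed the minimum, of which 0 were higher and 2 lower by 0.5. Over all 2038 genes there, 12.5% were higher and 11.1% lower. In cluster 11 alone, 5 passed, of which 1 was higher and 0 lower, where 10.7% of genes were higher and 11.3% lower. Both lists were drawn up with earlier results of these data known.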

How the data were processed

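Colon CD45+ cells of 1 pooled 5XFAD library and 1 pooled WT library were analysed. Per the submitters' processing notes, reads were processed with Cell Ranger 6.0.1 on mm10. No label or header states how cells were filtered or clustered later. In the deposited expression table the values were natural logs of 1 plus UMIs per 10000 of the cell, and the deposited metadata held, per the file headers, the total UMI count, the gene count, the library and the cluster of each cell, and a percent of mitochondrial UMIs, which was not used. Undoing the log with the deposited totals gave whole counts for 100% of 11758401 values (tolerance 1e-06), and the totals matched in 6886 of 6886 cells. A second deposited table, named SCT, held natural log values of 1 plus a corrected count for 14128 genes and served as an alternative. The library name AD in the metadata was taken as the 5XFAD sample.

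Counts were summed per cluster and library and divided by the total UMIs of the same cells (CPM), and not by gene length, since 3′ counts are 1 per molecule. Intervals at the 95% level were exact: Poisson for levels, conditional binomial for ratios and Clopper-Pearson for shares. A count of 0 was read as up to 3 counts. No doublet caller was run, and results were also computed without cells holding a UMI of Cd79a, Cd79b or Ms4a1. Thinning of each cell to 3000 UMIs left out 60 cells in 5XFAD and 124 in WT. The ratio and share intervals were tested on simulated counts drawn from the same count models that the intervals assume. UMIs of a gene that lie together in 1 cell were not simulated, so the simulation cannot show how the intervals hold for such counts. Named outside the 7 genes are the 3 genes with the highest correlation to each, the CD3 genes, coreceptors and the 3 highest and lowest of each list, and the 3 leading variable segments of each locus, of which a few are not reported here; genes compared between Trac and Trdc cells were chosen after their values were seen. The members and lists were chosen with earlier results of these data known. Transcript sequences and positions came from GENCODE M21 (GRCm38, the same assembly as mm10) and were aligned with MAFFT 7.526. Python 3.11.15, numpy 2.4.6, pandas 2.3.3, scipy 1.17.1 and matplotlib 3.10.9 were used.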

Additional observations from a re-analysis of the deposited data

Results flagged for a closer look

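The genotype ratio of Trbc1 went in opposite directions in 2 T cell clusters. In cluster 13, which is gamma delta T cell-like, its log2 ratio of 5XFAD over WT was 0.84, from 304 UMIs in 5XFAD and 109 in WT, and it was 0.90 without the cell with the most Trbc1 UMIs in each library. In cluster 10, which is T cell-like, its log2 ratio was -0.41, from 384 UMIs in 5XFAD and 440 in WT, and -0.43 without those cells. The difference between the clusters was not tested, since each genotype was 1 library.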

How the results depend on the processing

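No paired analysis was possible because each genotype was 1 library. No log2 ratio over the CD3-positive clusters whose interval lay above 0, those of Trac, Trdc, Tcrg-C1 and Tcrg-C2, changed sign under the alternatives run. Ratios near 0 did: that of Trbc1 was -0.02 in the SCT table, -0.02 without cells carrying a B cell marker UMI and -0.05 without cluster 13, and that of Tcrg-C4 was -0.19 without B marker cells and -0.01 without cluster 13. The log2 ratio of Trdc in the CD3-positive clusters was 0.24 without cells carrying a B cell marker UMI and 0.69 without cluster 13, a setting added after the data were seen. The Tcrg-C2 ratio was 0.47 in the SCT table, and the Trdc ratio was 0.35 in cells under 2500 genes and 0.55 with median-of-ratios scaling. As a mean over cells the gamma delta share was 11.8% in 5XFAD and 10.0% in WT over the CD3-positive clusters, 20.3% in 5XFAD and 18.5% in WT in cluster 11, and 39.1% in 5XFAD and 45.9% in WT in cluster 13. Without B marker cells the WT share was 13.02% over the CD3-positive clusters and 18.7% in cluster 11. As Trdc over Trac plus Trdc, added after the data were seen, it was 30.8% in 5XFAD and 26.8% in WT over the CD3-positive clusters, 34.0% in 5XFAD and 31.0% in WT in cluster 11, and 81.4% in 5XFAD and 84.9% in WT in cluster 13. With at least 2 UMIs, cells with alpha beta constants alone made up 75.2% in 5XFAD and 80.6% in WT, and cells with both kinds 15.7% in 5XFAD and 10.5% in WT. Cells with both made up 21.8% in 5XFAD and 17.1% in WT at 2000 UMIs per cell, and 34.5% in 5XFAD and 29.9% in WT unthinned, where alpha beta alone was 64.7% in 5XFAD and 68.9% in WT and gamma delta alone 0.601% in 5XFAD. Among cells with 1 of the beta constant genes, Trbc1 cells were 12.8% in 5XFAD and 14.8% in WT over the CD3-positive clusters, 10.3% in 5XFAD and 22.7% in WT in cluster 10, and 19.4% in 5XFAD and 4.35% in WT in cluster 13. As a median over cells, Trac in cluster 8 was 482 CPM in 5XFAD and 517 in WT, the opposite order to the summed counts, Trbc1 in cluster 9 was 461 in 5XFAD and 507 in WT, Trbc2 in cluster 9 was 422 in 5XFAD, and Trdc in cluster 13 was 581 in 5XFAD and 449 in WT. The causes of these moves were not tested. Genes past 0.5 over the CD3-positive clusters numbered 478 higher and 915 lower at the minimum of 50 UMIs, 803 higher and 1492 lower at 20 UMIs, and 3026 higher and 3658 lower with none. By Spearman rho, 17 of the 21 genes most similar by Pearson r were not among the 3 highest of their constant gene. Depth limits Tcrg-C2 and Tcrg-C4 most, with at most 120 UMIs per library and class, and 1 library per genotype limits every ratio to these libraries.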

Other observations

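Trac transcripts in B lineage cells were unevenly spread over clusters and libraries. In cluster 7, led by Egr3, Myc and Egr1, genes induced by receptor activation, a Trac UMI was found in 15 of 126 cells in 5XFAD and 3 of 126 in WT. In the B cell-like cluster 1 it was found in 33 of 645 cells (5.12%) in 5XFAD and 7 of 471 (1.49%) in WT. The beta constant genes did not show the same pattern: cluster 1 held 37 Trac UMIs and 14 Trbc1 or Trbc2 UMIs in 5XFAD, against 7 Trac and 11 beta constant UMIs in WT, and cluster 7 held 17 Trac and 3 beta constant UMIs in 5XFAD, against 3 and 4 in WT. Of the Trac cells, 1 in cluster 1 in 5XFAD and none in cluster 7 carried a UMI of Cd3d, Cd3e or Cd3g.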
